A study of Mus musculus with 22 samples.

Results

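DNA replication genes were followed in sorted marrow stem cells, the long-term hematopoietic stem cells (LT-HSCs), of mice with and without the aryl hydrocarbon receptor (AHR), a ligand-activated transcription factor. The genes were a named list of 50 that covers origin licensing, the replicative helicase, the polymerases, the clamp and its loader, and nucleotide supply. The list was not built from the signal of these arrays, although it was drawn up with earlier results of the same arrays in view. Of the 50, 49 had a probe set with a single gene symbol and were measured, out of 22025 such genes on the array. The gene left out is Rfc4, a clamp loader subunit, whose only probe set also carries the symbol Eif4a2. They were grouped into 10 subcomplexes or steps, and 44 had 1 probe set while 5 had 2, in which case the one with the higher mean over all arrays was used.

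All mice were C57BL/6J females whose Ahr alleles were floxed (Ahr fx/fx). AHRVav1 mice also carried a Vav1-Cre transgene, which acts in blood-forming cells and removes Ahr there, whereas AHRFX controls had no Cre. Lineage-negative, CD48-negative and CD150-positive marrow cells (the SLAM gate) were sorted after staining for Sca-1, cKit and CD34 as well, and the study describes them as CD34-negative LSK cells, which are lineage-negative, Sca-1-positive and cKit-positive. Then the RNA of each animal was amplified and hybridized to an array of its own. There were 5 AHRVav1 and 5 AHRFX mice at 2 months of age, and 6 AHRVav1 and 6 AHRFX mice at 18 months, so each array is a different animal. The signal of a probe set is a level summed over a sorted population, and fewer cells of a type and less RNA per cell cannot be told apart in it.

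Replication starts at origins, where the origin recognition complex, CDC6 and CDT1 load the ring-shaped MCM helicase in an inactive form during G1. The kinase CDC7 with its activator DBF4, together with CDC45, the GINS complex and MCM10, turn the loaded ring into a moving helicase at the start of S phase. Polymerase alpha-primase then lays down primers, polymerases epsilon and delta extend them on the PCNA clamp, and FEN1 and LIG1 join the fragments of the lagging strand. LT-HSCs are known for long quiescence, and in quiescent cells many of these genes are held low by the RB and E2F proteins and rise as cells enter the cycle.

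The E2F site is the promoter element these genes are best known for, so promoters were searched for it first. The search used the exact letters TTTCCCGC and TTTGGCGC on both strands, over the 300 bases from 250 before to 50 after each start site (RefSeq, GRCm38.p6). Of the 50 genes, 42 had a promoter in that table, with 51 promoters in all. A match stood in 14 of these 51 promoters (27.5%), against 514 of all 32851 promoters in the table (1.56%). Counted by gene, 14 of the 42 had a match, against 486 of 27025 genes (1.8%). The core of the AHR response element, GCGTG, was in 25 of the 51 member promoters (49%) and in 32.4% of all promoters, and its letters overlapped an E2F match in 1 of the 51.

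The 14 genes with an E2F match ran through most steps of replication. They were Orc3 at the origin, Cdc6, Cdt1 and Dtl in licensing, Mcm3, Mcm5, Mcm6 and Mcm7 in the helicase, Gins3 in its activation, Pola1, Pole2, Pold1 and Pold3 among the polymerases, and Rfc3 in the clamp loader. A match is a description of the letters and not of a bound site. Mcm3 and Mcm6 had 2 matches each, and Mcm5 and Cdc6 had the largest differences between the ages in AHRFX cells among the other genes with a match. These 4 promoters were chosen after the values had been seen, Mcm3 and Mcm6 for their 2 matches and Mcm5 and Cdc6 for those differences. They are shown 5′ to 3′ on the strand of the gene, with the E2F match in capitals. The rise with age was not compared between genes with and without a match.
Mcm3 (chr1:20820263-20820562, minus strand): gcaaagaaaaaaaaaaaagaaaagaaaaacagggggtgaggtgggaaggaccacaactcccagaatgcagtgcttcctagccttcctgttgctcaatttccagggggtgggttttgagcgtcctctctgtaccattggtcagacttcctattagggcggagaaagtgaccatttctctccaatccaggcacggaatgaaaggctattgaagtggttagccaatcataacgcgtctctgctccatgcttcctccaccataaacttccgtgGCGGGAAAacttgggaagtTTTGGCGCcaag
Mcm6 (chr1:128359656-128359955, minus strand): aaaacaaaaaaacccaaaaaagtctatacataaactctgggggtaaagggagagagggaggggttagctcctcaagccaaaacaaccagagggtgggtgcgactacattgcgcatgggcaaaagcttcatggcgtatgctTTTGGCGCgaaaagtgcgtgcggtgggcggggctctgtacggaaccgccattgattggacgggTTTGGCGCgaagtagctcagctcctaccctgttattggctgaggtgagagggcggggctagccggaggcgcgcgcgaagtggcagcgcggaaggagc
Mcm5 (chr8:75109259-75109558, plus strand): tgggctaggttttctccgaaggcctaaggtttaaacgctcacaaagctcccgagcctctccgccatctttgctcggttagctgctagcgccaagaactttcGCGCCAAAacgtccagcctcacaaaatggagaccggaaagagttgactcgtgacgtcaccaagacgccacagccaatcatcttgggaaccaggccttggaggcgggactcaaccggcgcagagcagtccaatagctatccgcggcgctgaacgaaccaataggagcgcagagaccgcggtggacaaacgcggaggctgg
Cdc6 (chr11:98907901-98908200, plus strand): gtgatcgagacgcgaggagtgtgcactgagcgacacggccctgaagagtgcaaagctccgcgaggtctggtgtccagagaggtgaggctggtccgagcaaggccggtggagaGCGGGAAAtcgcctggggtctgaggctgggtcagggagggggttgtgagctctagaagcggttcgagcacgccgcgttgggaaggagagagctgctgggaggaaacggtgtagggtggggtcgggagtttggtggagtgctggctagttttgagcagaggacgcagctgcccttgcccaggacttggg
In Mcm3 the matches lay after the start site, 19 and 38 bases into the transcript, and in Mcm6 they lay 110 and 47 bases before it. In Mcm5 the match began 149 bases before the start, and in Cdc6 138 bases before it. Of the 6 members with the smallest p between the genotypes at 18 months, 5 had a promoter in the table and 0 of these held a match.

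The arrays of the younger mice measured these genes far less well than those of the older mice. A probe set was called above background on an array when it exceeded the 95th percentile of 1401 probe sets of olfactory and vomeronasal receptors, genes not used by marrow cells. At 2 months 26.8 to 34.3% of probe sets in AHRFX and 24.4 to 30.5% in AHRVav1 were above background, against 52.3 to 58.7% and 53.3 to 57.6% at 18 months. Arrays of a group correlated at 0.682 to 0.774 and 0.706 to 0.753 at 2 months and at 0.951 to 0.98 and 0.95 to 0.981 at 18 months. Each age had arrays of its own, so age and array quality cannot be told apart. At 18 months animals 1 and 2 stood apart from animals 3 to 6 over all probe sets. The deviations of AHRVav1 and AHRFX animals from their group means correlated by 0.215 on average where both were numbered 1 or 2, and by -0.133 where one was and the other was not.

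The label of the deletion was checked on Ahr itself. Ahr was above background on 0 of 5 arrays of either genotype at 2 months. At 18 months the AHRFX arrays gave a signal of 52 ± 24.9 (SD, n = 6) and the AHRVav1 arrays one of 28 ± 7.62 (SD, n = 6). Ahr was then above background on 5 of 6 AHRFX and 2 of 6 AHRVav1 arrays. The difference was -0.57 on the log2 scale, with an unadjusted p of 0.0127 and an adjusted p of 0.793 in limma. The probe set sums the whole transcript, so loss of the deleted part alone need not lower it. Of the 10 LT-HSC markers measured, 9 were above background on every AHRFX array and 9 on every AHRVav1 array at 18 months, and 6 and 5 at 2 months. The transcripts of 2 surface proteins that the sorted cells should lack were found. Cd34 was above background on every array of all 4 groups. Cd48 was so on 6 of 6 arrays of both genotypes at 18 months, and on 1 of 5 AHRFX and 3 of 5 AHRVav1 arrays at 2 months. Of the other 5 progenitor markers, 4 in AHRFX and 3 in AHRVav1 (Flt3, Fcgr3 and Irf8 in both) were above background on every 18-month array, and 0 on every 2-month array.

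Detection of the replication genes followed the same split. At 18 months 48 or 49 of the 49 were above background on each array, and 48 (AHRFX) and 49 (AHRVav1) were so on every array of the group. At 2 months 17 to 32 were above background on an AHRFX array (median 30) and 21 to 26 on an AHRVav1 array (median 26). The genes above background on every array at that age numbered 10 in AHRFX and 8 in AHRVav1, and both sets held Mcm6, Pcna, Rfc2, Rpa3, Rrm1 and Rrm2. The unused second probe set of Rrm2 passed on 0 of 5 AHRFX and 1 of 5 AHRVav1 arrays, and that of Rpa3 on 4 of 5 and 2 of 5. There were 3 genes in AHRFX and 8 in AHRVav1 that passed on no array at 2 months. Within a group the SD of a member had a median of 1.07 (AHRFX) and 1.14 (AHRVav1) among the young animals, in log2 units, and of 0.247 and 0.297 among the old ones.

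The mean level over the 49 genes, as log2(signal + 16), was 6.65 ± 0.313 (SD, n = 5) in the young AHRFX mice and 6.65 ± 0.2 (SD, n = 5) in the young AHRVav1 mice. The old mice had 8.03 ± 0.107 (SD, n = 6) and 8.22 ± 0.242 (SD, n = 6). The ranges of the ages did not meet, since the highest 2-month animal stood at 6.89 and the lowest 18-month animal at 7.89. Within an age the genotypes overlapped. Animals 1 and 2 of the 18-month AHRVav1 group, at 8.54 and 8.51, were above every other animal.

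**Figure D1:**
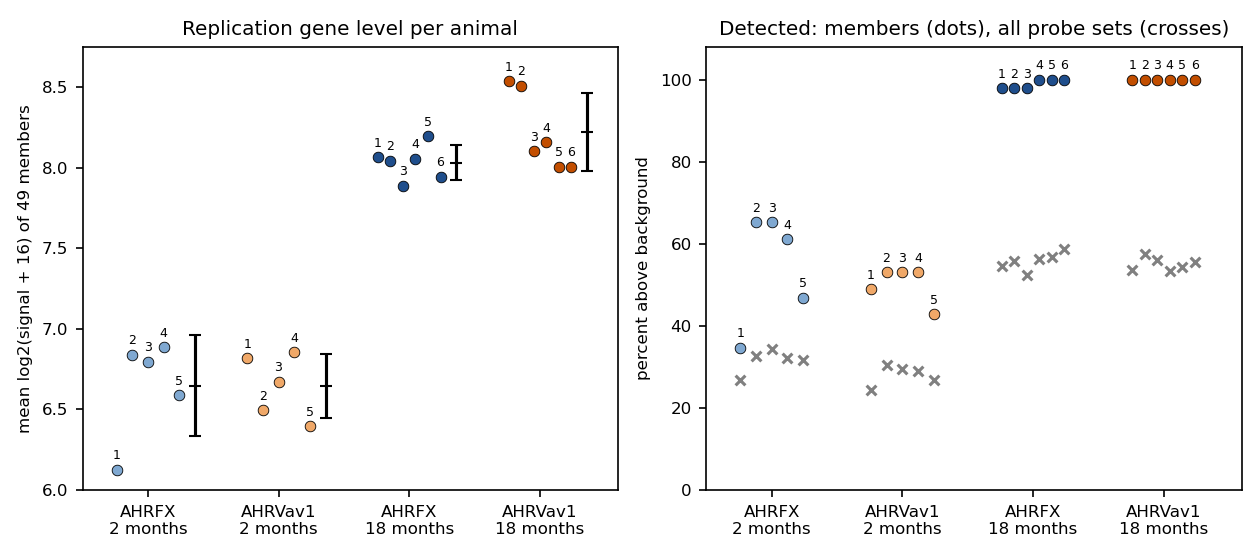
Left, mean log2(signal + 16) of the 49 replication genes for each animal (dots, numbered by replicate), with the group mean and SD beside them; right, the percent of the 49 genes (dots) and of all probe sets (crosses) above background on the same arrays. The 2-month animals lie between 6.13 and 6.89 and the 18-month animals between 7.89 and 8.54, and the detected share of all probe sets moves with age in the same direction.

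In AHRFX cells, which keep AHR, the replication genes were higher at 18 than at 2 months. Of the 49, 30 rose and 0 fell at an adjusted p under 0.05 in limma, where 20.2% of all 26688 probe sets rose and 24.2% fell. Differences are 18 minus 2 months on the log2(signal + 16) scale, which understates changes of dim probe sets. The median difference over the 49 was 1.24, with 49 of 49 above 0, while the median over all probe sets was -0.11. Among the 13344 probe sets of highest mean signal, 28 of 47 members rose, against 27.7% of those probe sets. For 19 members the lowest 18-month animal lay above the highest 2-month animal, which held for 10.7% of all probe sets, and for 0 members was the order reversed (13.6%). The shift in detection with age, from 31.5% of probe sets to 55.7%, moved with these differences. So did some markers of other marrow cells, of which 7 of 9 erythroid, 6 of 7 monocyte and macrophage and 5 of 7 progenitor markers rose. In the other lists 4 of 7 megakaryocyte and 4 of 10 granulocyte markers rose. Of 9 endothelial and stromal markers 4 rose and 1 fell, and of 8 lymphoid markers 2 rose and 1 fell. Of 10 LT-HSC markers 1 rose and 2 fell. The part of detection or of other cells in the result was not tested.

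The MCM ring and the group of Cdc6, Cdt1, Gmnn and Dtl, which load it or control its loading, were called as whole groups in AHRFX cells, while 3 of the 6 origin recognition genes rose. The 6 genes of the MCM ring all rose, with a median of 1.58, as did the 4 genes of licensing and its control, with a median of 1.91. Mcm5, a subunit of the ring, had signals of 13, 6.5, 0.2, 16.9 and 18.2 at 2 months, below background on each array, and 309.3, 344.3 and 535.6 as lowest, median and highest at 18 months. All 6 older animals were thus above all 5 younger ones. The mean of the older group was at least 4.69-fold that of the younger when each younger array's background level stands in for its signal (adjusted p = 5.03e-06 in limma). Cdc6, the loader of the ring, had 43.2, 4.6, 114.1, 18.7 and 18.8 at 2 months and 220.7, 351 and 442 at 18 months. Its difference was 2.96 ± 0.423 (SE), with no overlap. Mcm4 had 9.3, 87.8, 23.5, 598.3 and 3 at 2 months and 395.7, 452 and 567.5 at 18 months. Here 1 younger animal, number 4, was above all 6 older ones, and the difference of 2.86 ± 0.719 (SE) still passed. Cdt1, which works with Cdc6 in loading, had 8.4, 4, 9.2, 11.6 and 213.2 at 2 months and 118.3, 164.5 and 235.2 at 18 months. It rose by 2.26 ± 0.539 (SE), with younger animal 5 inside the older range. Cdc6 and Cdt1 were each above background on 1 of 5 younger arrays and Mcm4 on 2 of 5. The fitted sizes of these genes thus rest mostly on younger values that are not measured levels. Mcm7 and Mcm6 rose by 1.93 and 1.23.

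Fork genes rose as well in AHRFX cells, but less evenly. Chaf1a, the large subunit of the chaperone that deposits histones behind the fork, rose by 2.93 ± 0.401 (SE) from signals of 20, 97.4, 38.7, 127.7 and 19.1 to 364.6, 470 and 639.3 as lowest, median and highest. Fen1, the flap nuclease, rose by 2.48 ± 0.418 (SE) from 1.8, 113.4, 26.1, 25.2 and 15.3 to 165.1, 229 and 268.4. In neither gene did the ages overlap. Pole, the catalytic subunit of polymerase epsilon, had 11.8, 14.4, 1.1, 80.8 and 29.1 at 2 months and 97.4, 156 and 233.1 at 18 months (2.25 ± 0.4, SE). Pola1, that of polymerase alpha, had 13.9, 249.1, 104.8, 315.1 and 64.1 and then 464.4, 537 and 672.2 (2.20 ± 0.521, SE). Both polymerase genes were also higher in every older animal than in any younger one. Orc2, of the origin recognition complex, had 2.9, 12.9, 126.7, 16.5 and 10.4 at 2 months and 107.8, 153 and 292.2 at 18 months (2.29 ± 0.468, SE). Cdc45, part of the active helicase, had 14.7, 135.5, 7.5, 27.4 and 7.6 and then 131.1, 175.5 and 210.9 (2.195 ± 0.432, SE). In each of these 2 genes 1 younger animal reached into the older range. Fen1, Pole, Orc2 and Cdc45 were each above background on 1 of 5 younger arrays and Chaf1a on 2 of 5. Their fitted sizes thus rest mostly on younger values that are not measured levels. Among the 5 clamp and loader genes 1 rose, Pcna, by 0.57 ± 0.195 (SE) from a level that was above background on every array. Rfc1, Rfc2, Rfc3 and Rfc5 had differences of 0.30 to 0.96 and did not pass. In helicase activation 5 of 8 rose, and Gins2 was level, at 0.02 ± 0.433 (SE).

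In AHRVav1 cells, with the Ahr deletion, the direction was the same. Of the 49, 34 rose and 0 fell, where 22.8% of all probe sets rose and 26.2% fell, and among the 13344 of highest mean signal 32 of 47 members rose (31.8% of those probe sets). The median difference was 1.76, with 48 of 49 above 0, and that over all probe sets was -0.09. For 20 members the groups did not overlap with 18 months higher, against 13.1% of all probe sets, and for 0 with 18 months lower (15.3%). Detection of all probe sets moved from 28% to 55.1%. Of the markers, 4 of 9 erythroid, 6 of 7 monocyte and macrophage, 5 of 7 progenitor and 4 of 7 megakaryocyte markers rose. Of 10 granulocyte markers 1 rose and 1 fell, and of 8 lymphoid markers 2 rose and 2 fell. Of 9 endothelial and stromal markers 1 rose and 2 fell, and of 10 LT-HSC markers 2 rose and 2 fell. The part of detection or of other cells was not tested here either. Without animals 1 and 2 of the 18-month group, 22 of the 49 rose and the median was 1.48. That fit had fewer older animals, and the share of all probe sets that rose in it is not given. The fall from 34 can therefore not be put down to those 2 animals.

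The licensing and ring genes were again called as whole groups, with 4 of 4 and 6 of 6, and so were the chromatin assembly genes, with 2 of 2. Helicase activation followed with 7 of 8, and 2 of 6 origin recognition genes rose. Cdc6 had signals of 65.7, 8.7, 0, 92.2 and 0 at 2 months and 206.1, 345 and 667 as lowest, median and highest at 18 months, a difference of 3.46 ± 0.555 (SE). Dbf4, the activating subunit of the CDC7 kinase, had 10.7, 1.1, 8.9, 164.6 and 7.3 at 2 months and 216.7, 298 and 393.4 at 18 months, a difference of 3.21 ± 0.516 (SE). Animal 4 of the 2-month group stood far above the other 4 and still below every older animal. Among the other called genes of the ring, Mcm5 had 7.6, 33.2, 44.8, 77.1 and 133.9 at 2 months and 258.1, 386 and 443.9 at 18 months (2.58 ± 0.417, SE). Mcm4 had 17.2, 20.7, 326.2, 204.1 and 152.4 and then 438.2, 500 and 792 (2.38 ± 0.578, SE). In both, every older animal was above every younger one. Rpa2, a subunit of the protein that coats single strands, had 43.1, 108.2, 4.9, 26.4 and 12.6 at 2 months and 194.2, 275 and 332.2 at 18 months (2.65 ± 0.406, SE), with no overlap. Cdc6, Dbf4 and Rpa2 were each above background on 1 of 5 younger arrays and Mcm5 on 2 of 5. The fitted sizes of these genes thus rest mostly on younger values that are not measured levels. Chaf1a had 719.3, 7.6, 224.8, 131.1 and 2.5 and then 440.7, 501 and 550.4 (2.32 ± 0.795, SE). Its younger animal 1 was above every older animal, and its call was lost when any of 4 single animals was left out.

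Cdc45, Fen1, Mcm10 and Gmnn, the inhibitor of CDT1, were above background on no 2-month AHRVav1 array. Cdc45 had 7.2, 12.2, 1.4, 26.7 and 21.2 at 2 months and 159.1, 218 and 278.8 at 18 months. Fen1 had 37, 2.7, 11.6, 28.3 and 23.5 and then 172.3, 217 and 297.2. In both, the lowest older animal was above the highest younger one. Mcm10 had 20.5, 10.2, 21.7, 39.3 and 42 and then 142.3, 183 and 269.5. Gmnn had 18, 13.4, 6.5, 38.1 and 5.1 and then 121.3, 194 and 259. These 2 did not overlap between the ages either. The mean 18-month level was at least 2.42-fold that of the younger group for Cdc45, 2.5-fold for Fen1, 2.15-fold for Mcm10 and 2.13-fold for Gmnn, with the younger arrays' background in place of the signal. Pole, Pole2 and Cdc7, also undetected there, were at least 1.74-fold, 1.51-fold and 1.06-fold higher.

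For Orc1, undetected at 2 months in both genotypes, and for Gins3 in AHRFX, no fold can be given, because the older level lay below the younger arrays' background. They are counted above among the genes that rose, on fitted values that the younger arrays could not resolve. With such genes set at their bound, the median over the 49 was 1.22 in AHRFX (3 genes at the bound) and 1.27 in AHRVav1 (8 genes), and 47 of 49 stayed above 0 in each. The clamp and loader had the lowest median of the 10 groups in both genotypes, 0.62 and 0.44, and 2 of its 5 genes rose in AHRVav1, Pcna and Rfc1. Rfc5 was the only member with a negative difference in AHRVav1, at -0.55 ± 0.396 (SE), which did not pass. The second probe sets of Fen1, Pole, Rpa1, Rpa3 and Rrm2 had the same sign as the first in both age comparisons, but not always the same size. Rpa1 in AHRVav1 was at 0.49 on the first, which did not pass, and at 2.46 on the second, which did. Rrm2 in AHRFX was at 0.86 on the first and 2.58 on the second. The age comparisons of the 2 genotypes use separate animals.

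**Figure D2:**
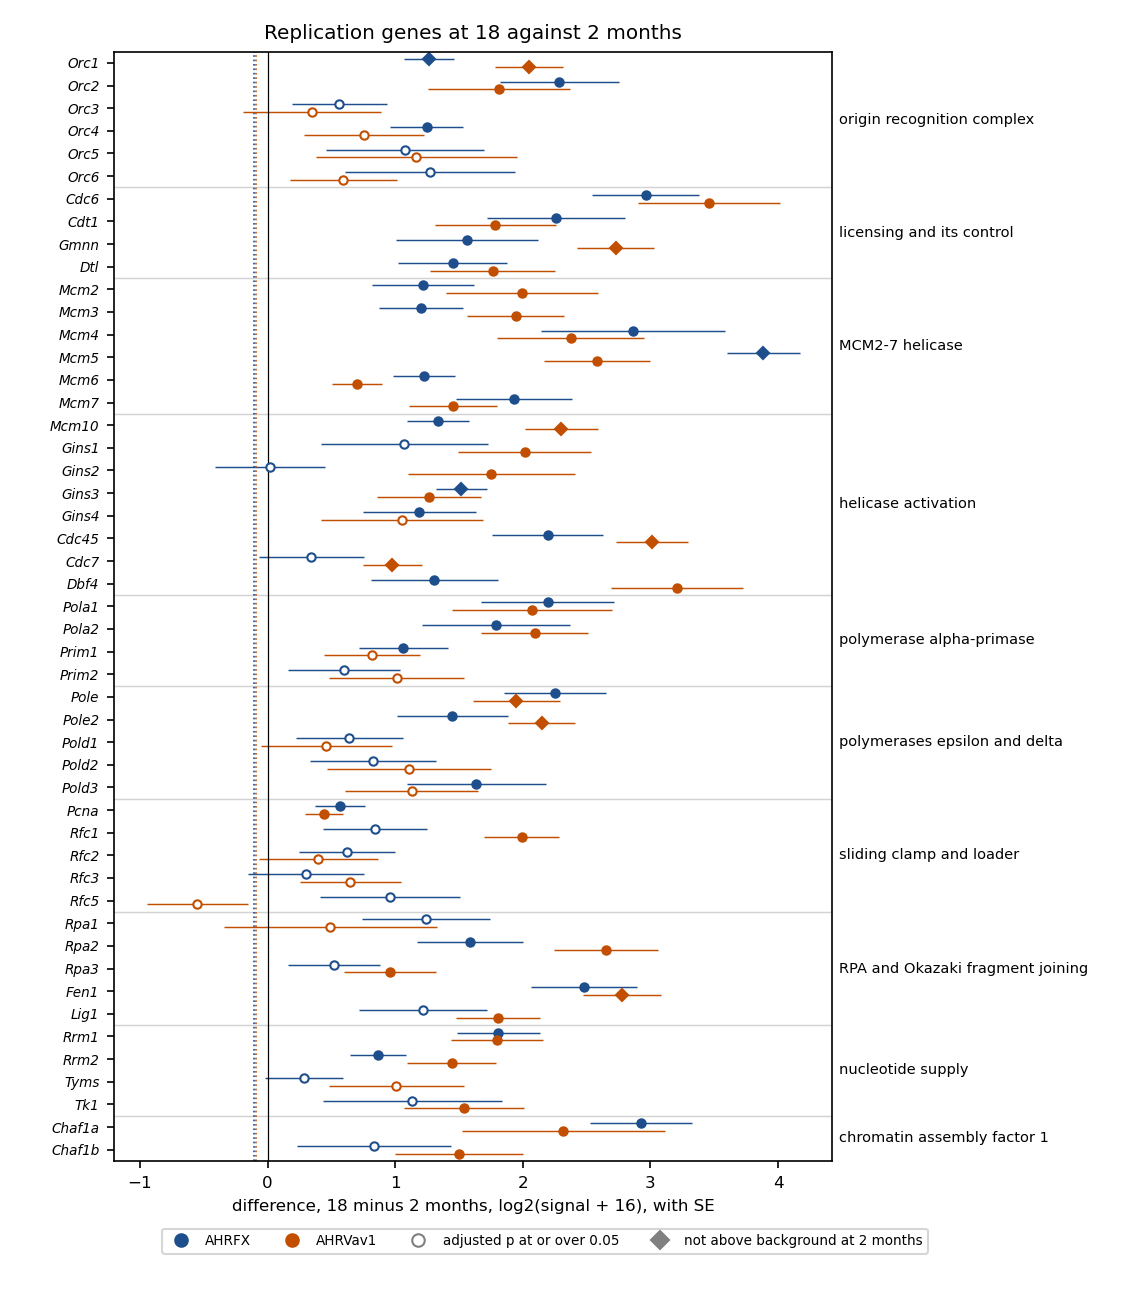
Difference between 18 and 2 months for each of the 49 genes, as log2(signal + 16) with its SE, in AHRFX (blue) and AHRVav1 (orange), ordered by subcomplex. Filled marks passed an adjusted p under 0.05, diamonds were above background on no 2-month array of that genotype, and dotted lines mark the medians of all probe sets at -0.11 and -0.09; all marks but that of Rfc5 in AHRVav1 lie above 0.

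Between the genotypes at 2 months 0 of the 49 genes passed the adjusted threshold, as did 0% of all probe sets, and the adjusted p of the members was 0.966 or more in limma. The question here is whether loss of AHR alters these genes in young LT-HSCs. At an unadjusted p under 0.05, 2 members were higher in AHRVav1 (1.94% of all probe sets) and 1 was lower (2.69%). Of the 49 differences, AHRVav1 minus AHRFX, 24 were above 0, and their median was -0.05. In 0 members did the groups separate, in either direction (0.363% and 0.495% of all probe sets). With the spread between animals at this age, the members' differences had wide standard errors, such as 0.612 for Rfc3 and 0.655 for Cdc6.

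The 3 members at an unadjusted p under 0.05 were dim in at least some animals. Rfc5, a clamp loader subunit, had signals of 333.1, 142.4, 388.1, 151.1 and 15.1 in AHRFX and 660, 284.4, 1649.4, 445.7 and 345.6 in AHRVav1, a difference of 1.79 ± 0.715 (SE), 3.45-fold. The groups overlapped, and all 5 AHRVav1 animals were above the AHRFX mean. Mcm5 had 7.6, 33.2, 44.8, 77.1 and 133.9 in AHRVav1, of which 2 of 5 were above background, against 0 of 5 in AHRFX, and no fold is given because both group means lay near or below background. Dbf4 had 17.5, 214, 39.7, 161.1 and 218.1 in AHRFX against the AHRVav1 values given above, with 3 of 5 and 1 of 5 arrays above background. The next 3 by p were Mcm6, Gmnn and Rpa2. Mcm6, above background on every array, had 272, 280.5, 547.6, 475.5 and 615.1 in AHRFX and 610.4, 738.1, 450.7, 783.3 and 702.8 in AHRVav1, which overlapped (0.62 ± 0.299, SE). Gmnn was above background on 2 of 5 AHRFX and 0 of 5 AHRVav1 arrays, and Rpa2 on 2 of 5 and 1 of 5. For Dbf4, Gmnn and Rpa2, as for Mcm5, most of the values in at least 1 genotype are not measured levels, and the size of the difference is not given. Helicase activation had 2 of 8 differences above 0 with a median of -0.46, and the origin recognition complex 5 of 6 with a median of 0.50. The second probe sets of Rpa1 and Rrm2 had the opposite sign to the first in this comparison.

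At 18 months, where all but 1 of the 49 genes were above background on every array, 0 passed the adjusted threshold between the genotypes (0% of all probe sets), and the smallest adjusted p of a member was 0.793 in limma. The differences nonetheless lay mostly on one side. AHRVav1 minus AHRFX was above 0 in 42 of 49, with a median of 0.18, while 50.1% of all probe sets were above 0, with a median of 0.00. At an unadjusted p under 0.05, 7 members were higher in AHRVav1 (14.3%, against 3.09% of all probe sets) and 0 were lower (3.09%). In 0 members were the groups separate, higher (0.18%) or lower (0.199%). Members of a pathway vary together between animals, so these counts are not counts of independent genes.

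**Figure D3:**
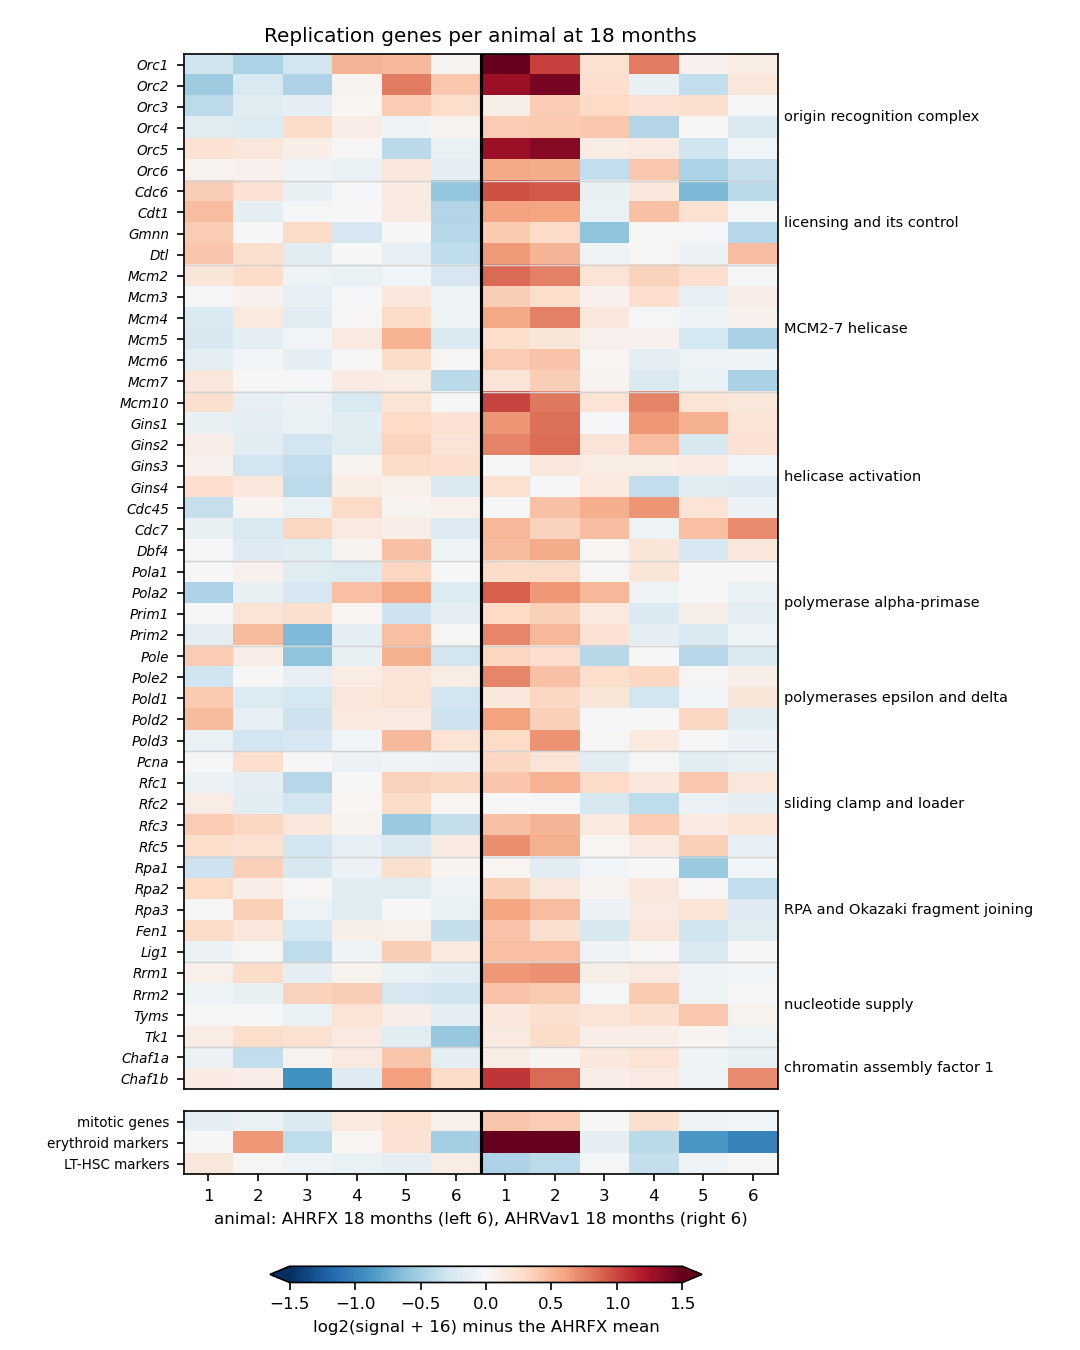
Replication genes (rows, by subcomplex) in each 18-month animal (columns, AHRFX left and AHRVav1 right, numbered by replicate), as log2(signal + 16) minus the AHRFX mean of the gene, with the mean deviations of the mitotic genes, erythroid markers and LT-HSC markers below. AHRVav1 animals 1 and 2 are the 2 highest of their group in 38 of the 49 rows, and the erythroid row is highest in the same animals; colors are capped at 1.5.

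The 7 members came from 5 of the 10 groups, with helicase activation giving 3. Mcm10, which opens the activated helicase, had signals of 104.1, 121 and 150.4 as lowest, median and highest in AHRFX and 142.3, 183 and 269.5 in AHRVav1. Every AHRVav1 animal was above the AHRFX mean, 2 AHRFX animals lay within the AHRVav1 range, and the difference was 0.52 ± 0.168 (SE), 1.44-fold (adjusted p = 0.793 in limma). Gins1, a GINS subunit, had 126.9, 132 and 179.2 in AHRFX and 141.5, 224 and 265.8 in AHRVav1. The study lists it as up-regulated at this age both in AHRVav1 mice and, from separate arrays, in mice without AHR in any cell. Of 6 AHRVav1 animals 5 were above the AHRFX mean of Gins1 (0.48 ± 0.156, SE, 1.39-fold). This fold, taken with the offset, is below the 1.5-fold of the study's methods. Cdc7, the kinase that fires origins, had 48.4, 59 and 77.1 against 55.6, 87.6 and 107.4, with animal 4 of AHRVav1 inside the AHRFX range (0.40 ± 0.148, SE).

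Mcm2, another subunit of the ring, had 189, 219 and 280.3 in AHRFX and 223.4, 284 and 424.9 in AHRVav1 (0.40 ± 0.159, SE), with AHRVav1 animals 1 and 2 at 424.9 and 396.9 and the other 4 at or below 293.5. Orc1, the largest subunit of the origin complex, had the widest difference, 0.65 ± 0.265 (SE). Its signal was 18.9, 28.9 and 52.9 in AHRFX, above background on 3 of 6 arrays, and 34.5, 53.8 and 138.4 in AHRVav1, where animal 1 alone reached 138.4. Rfc1, the large clamp loader subunit, had 163.6, 218 and 289.3 against 253.1, 291 and 331.1 (0.33 ± 0.142, SE), with every AHRVav1 animal above the AHRFX mean. Pole2, a polymerase epsilon subunit, was the seventh, at 0.31 ± 0.143 (SE).

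**Figure D4:**
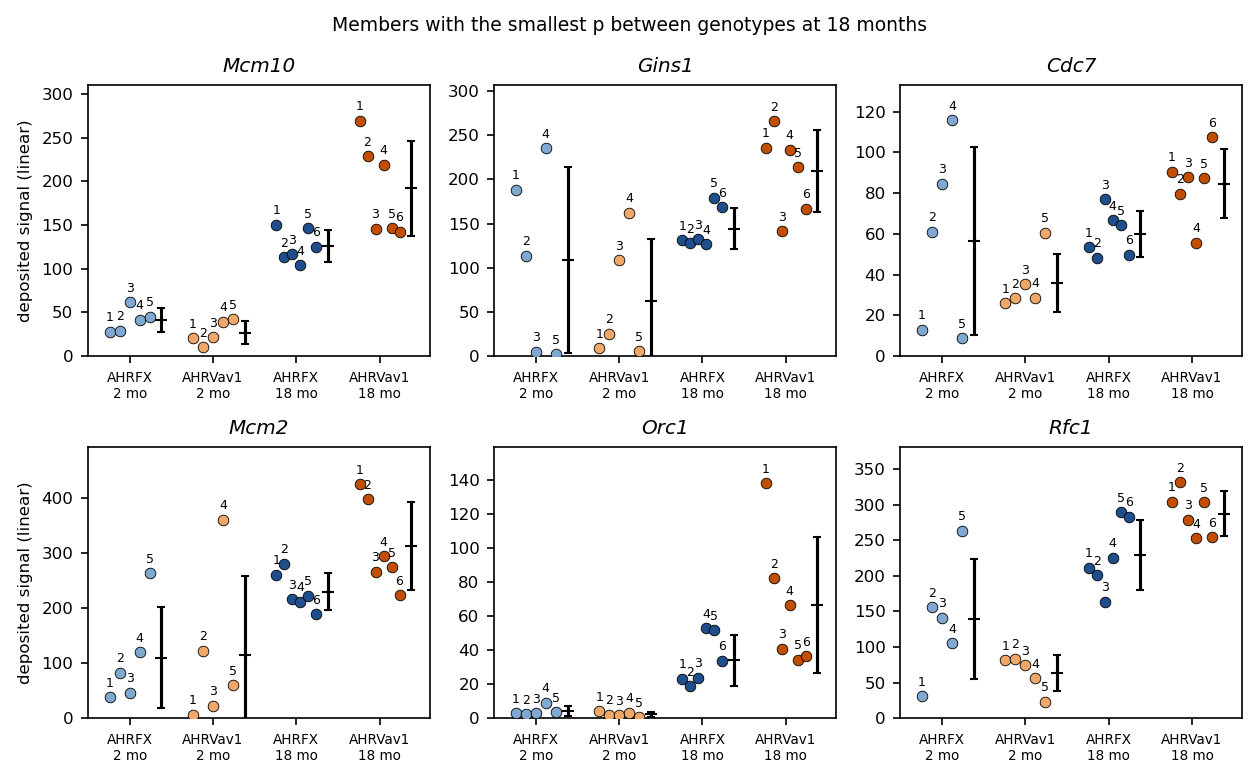
Deposited linear signal of the 6 members with the smallest p between the genotypes at 18 months, for each animal of the 4 groups (dots numbered by replicate), with the group mean and SD. For each gene the AHRVav1 and AHRFX animals of 18 months overlap, and animals 1 and 2 are the highest pair of the AHRVav1 group for all of them but Cdc7.

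Across the groups of members, all 6 origin recognition genes (median 0.31), all 4 of polymerase alpha-primase (0.15), all 4 of nucleotide supply (0.20) and both chromatin assembly genes (0.26) were above 0 at 18 months. Helicase activation was above 0 in 7 of 8 (0.33), with Gins4 at -0.06. The clamp and loader (4 of 5, median 0.27), polymerases epsilon and delta (4 of 5, 0.17) and the single-strand and joining genes (4 of 5, 0.07) each had 1 gene below 0. Those were Rfc2 (-0.15), Pole (-0.08) and Rpa1 (-0.13). Licensing and its control was above 0 in 3 of 4 (0.20), with Gmnn at -0.06. In the MCM ring 4 of 6 were above 0 (0.12) and Mcm5 and Mcm7 were both at -0.03. Pcna, the clamp, was at 0.01 ± 0.103 (SE). The second probe sets of Fen1 and Pole had the opposite sign to the first at this age.

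The difference at 18 months rested largely on 2 animals. AHRVav1 animals 1 and 2 were the highest pair of their group in 38 of the 49 genes, where the same pair led in 16.9% of all probe sets, and AHRFX animals 1 and 2 in 11 (15.8% of all probe sets). With animals 1 and 2 of each genotype compared, the median difference over the members was 0.44 and 47 of 49 were above 0. With animals 3 to 6 compared, it was 0.05 and 30 of 49 were above 0. Orc2 went from 1.74 in the former to -0.21 in the latter, Pola2 from 1.06 to -0.06, and Mcm5 from 0.41 to -0.25. Without animals 1 and 2, 2 members were higher at an unadjusted p under 0.05 (3.33% of all probe sets), Mcm2 (0.31 ± 0.131, SE) and Rfc3 (0.38 ± 0.172, SE), both with an adjusted p above 0.8. Mcm10 (0.36), Cdc7 (0.30), Gins1 (0.28) and Cdc45 (0.25) kept their sign. With a term for the pair in the fit, 12 members were higher (4.13% of all probe sets) and 0 passed the adjusted threshold. That term takes up only what the pair shares in both genotypes. It left the genotype differences as they were, such as 0.44 for Orc2, and changed only their standard errors. The fit with the term thus does not remove the excess of AHRVav1 animals 1 and 2.

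Markers of the red cell lineage moved with the replication genes in AHRVav1 animals 1 and 2. The 9 erythroid markers measured had a median difference of 1.51 between the genotypes in animals 1 and 2 (9 of 9 above 0) and of -0.22 in animals 3 to 6 (0 of 9). Their mean deviation from the AHRFX mean was 1.87 and 1.79 in AHRVav1 animals 1 and 2, and -1.004 to -0.145 in the other 4. In AHRFX it ranged from -0.51 to 0.65, and 2 of 9 had animals 1 and 2 as the highest pair. Within AHRFX, animals 1 and 2 minus animals 3 to 6 gave 0.63 for the erythroid markers and 0.05 for the replication genes. Within AHRVav1 the same comparison gave 2.74 and 0.46. Other markers differed between these animals in both genotypes. The progenitor markers gave -1.61 in AHRVav1 and -1.275 in AHRFX, and the monocyte and macrophage markers -1.49 and -1.03. Among the markers, 7 of 9 were above background on every AHRVav1 array and 8 of 9 on every AHRFX array at 18 months. Gata1 and Klf1, which encode transcription factors of that lineage, had mean signals of 300 and 310 in AHRVav1 and of 160 and 123 in AHRFX. The 10 LT-HSC markers had a median of -0.51 in animals 1 and 2 and of -0.07 in animals 3 to 6, and 0 of 10 were above 0 over all animals. The 7 megakaryocyte markers had -0.81 and -0.15, the 7 progenitor markers -0.73 and -0.11, and the 7 monocyte and macrophage markers -0.52 and -0.08. Lymphoid markers had -0.35 and -0.06, endothelial and stromal markers -0.28 and -0.39, and granulocyte markers 0.05 and -0.14. The sort depleted lineage-positive cells and is described as taking Sca-1-positive ones. Klf1, Tfrc and Ermap of the erythroid list were still above background on 6 of 6 arrays of both genotypes at 18 months. Whether maturing red cells remained was not tested, nor was their part in the replication gene difference.

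**Figure D5:**
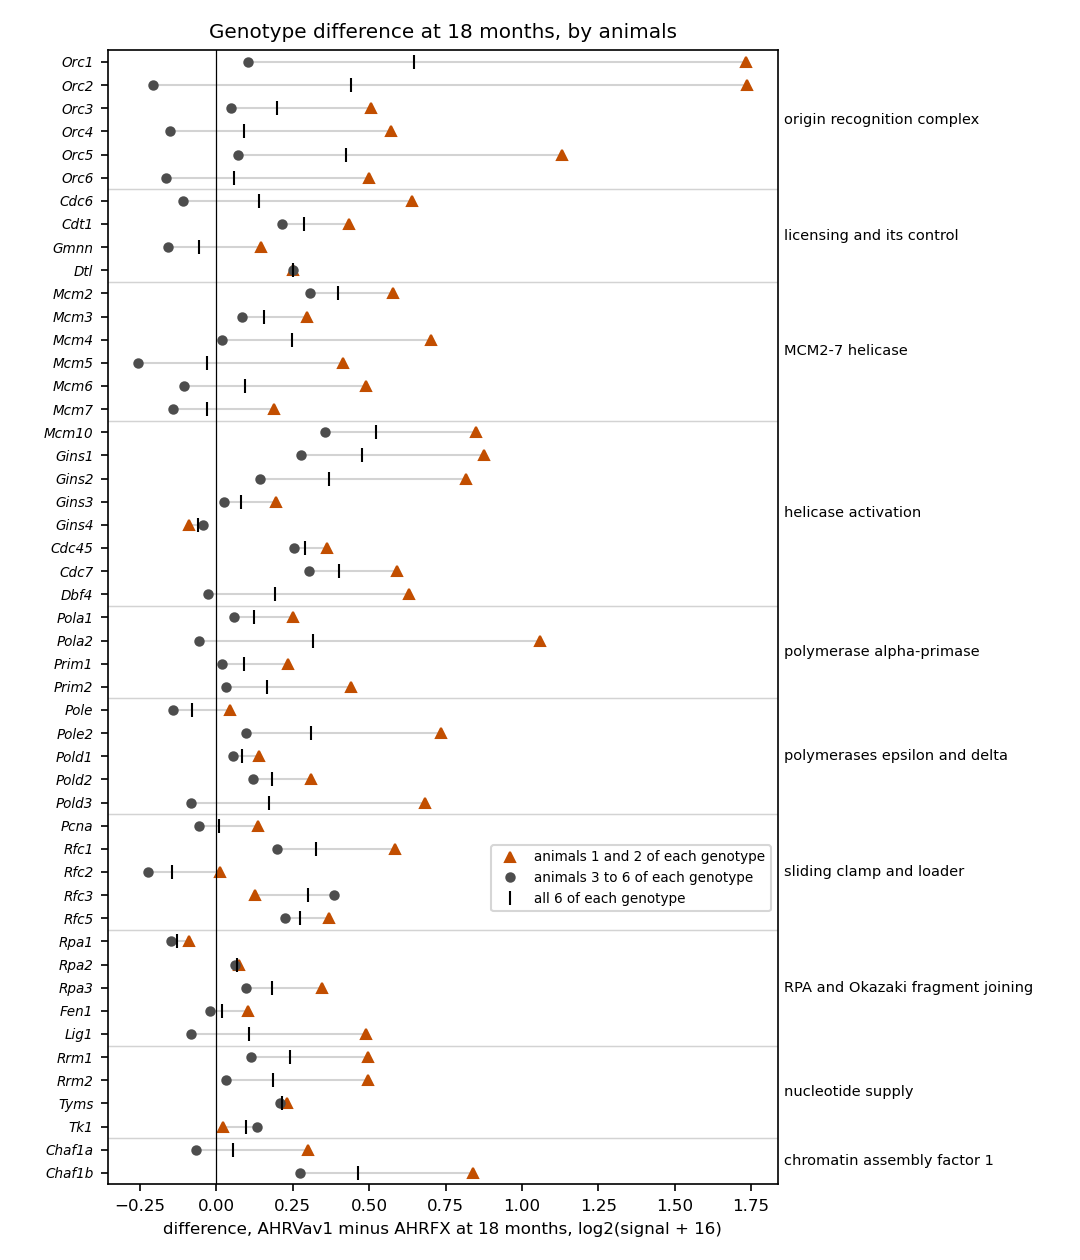
AHRVav1 minus AHRFX at 18 months for each of the 49 genes, as log2(signal + 16), from animals 1 and 2 (triangles), animals 3 to 6 (dots) and all 6 (ticks) of each genotype. The median is 0.44 over the triangles and 0.05 over the dots, and the origin recognition genes Orc1 and Orc2 show the widest gaps.

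Other genes of the cell cycle were described from lists of their own. These counts stand against 50.1% of all probe sets above 0 and 3.09% higher, and 3.09% lower, at an unadjusted p under 0.05. Among 29 further fork genes 24 were above 0 between the genotypes at 18 months (median 0.14), 2 were higher at an unadjusted p under 0.05, and 0 passed the adjusted threshold. The 2 were Chtf8 of a second clamp loader (0.28 ± 0.115, SE) and the helicase Recql4 (0.48 ± 0.2, SE). Of 16 other nucleotide synthesis genes 11 were above 0 and 4 had an unadjusted p under 0.05, led by Shmt2, which supplies one-carbon units (0.50 ± 0.168, SE). Of 15 mitotic genes 14 were above 0 and 4 had an unadjusted p under 0.05, led by Cdc20, the activator of the anaphase complex (0.45 ± 0.13, SE). The E2F and S phase entry genes were above 0 in 14 of 20, with Uhrf1 at 0.32 ± 0.134 (SE).

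The G1 cyclins and cell cycle inhibitors had 6 of 14 above 0 and a median of -0.02. Cdkn1c, the inhibitor p57 that is known for holding stem cells in quiescence, was at -0.34 ± 0.158 (SE) and Mycn at -0.39 ± 0.184 (SE), while Myc was at 0.25 ± 0.126 (SE). In animals 3 to 6 alone the medians of the fork, mitotic and E2F lists were -0.04, -0.05 and 0.01, against 0.53, 0.55 and 0.34 in animals 1 and 2. The G1 list had a median of 0.03 in animals 3 to 6 (7 of 14 above 0) and of -0.27 in animals 1 and 2 (4 of 14). Between the ages 20.2% of all probe sets rose in AHRFX and 22.8% in AHRVav1. In AHRFX 19 of 29 fork genes, 12 of 15 mitotic and 14 of 20 E2F and S phase entry genes rose, and in AHRVav1 24, 14 and 12, with 0 falling in either genotype. Of the G1 genes 7 of 14 rose and 2 fell in AHRFX, and 7 rose and 1 fell in AHRVav1.

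Whether the genotypes differed more at one age than at the other was tested as an interaction over the 4 groups, as the 18-month minus the 2-month effect. Of all probe sets 3 passed (0.0112%), and 0 were members. At an unadjusted p under 0.05, 5 members were higher (4.22% of all probe sets) and 2 lower (3.71%), and the median over the 49 was 0.30 with 27 above 0. The 5 were Mcm10 (0.97 ± 0.355, SE, adjusted p = 0.51 in limma), Dbf4 (1.90 ± 0.742, SE), Rfc1 (1.15 ± 0.494, SE), Orc1 (0.78 ± 0.34, SE) and Gins2 (1.74 ± 0.818, SE), and the 2 were Mcm5 (-1.31 ± 0.499, SE) and Rfc5 (-1.51 ± 0.702, SE). All of these but Rfc5 rest on 2-month values of which several or most were below background, and Orc1 was detected on no 2-month array. Rfc5 was above background on 4 of 5 AHRFX and 5 of 5 AHRVav1 arrays at 2 months. With 0 members past the adjusted threshold, the ages are not shown to differ in how the genotypes differ in any replication gene.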

How the data were processed

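LT-HSCs of 22 mice were profiled on Mouse Gene 2.0 ST arrays, 1 array per animal. The authors deposited linear probe set intensities, which they had background-subtracted and quantile-normalized with IterPLIER in Affymetrix Expression Console (version not given in the sources used here). Of 26688 probe sets, 23321 carried 1 gene symbol, 1802 several and 1565 none, and symbols were updated through RefSeq (GRCm38.p6). Intensities were taken as log2(signal + 16). The offset damps differences near background. Array quality, given with the results, limits the precision at 2 months.

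Each comparison was fitted on its 2 groups with limma 3.58.1 in R 4.3.3 (lmFit, eBayes with a trend), two-sided, with no covariate and with Benjamini-Hochberg adjustment over 26688 probe sets at 0.05. The interaction used all 4 groups. The test was tested on simulated data, where unequal spread between the ages added false calls to the age comparisons, so a variance for each group was added as an alternative. Where a member was above background on no array of a group, the background level of each array replaced its signal to give a bound. Members are described by counts and medians, without a test of the list. Members and lists were chosen with earlier results of these arrays known. Full values were given for members past the adjusted threshold, at most 10 by size in each direction, and where fewer than 6 passed, for the 6 of smallest p. Alternatives were another offset, filter, normalization, test and set of samples, a replicate block, and leaving out animals.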

Additional observations from a re-analysis of the deposited data

Results flagged for a closer look

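In groups of 5 or 6 animals, 92 sets of values were examined for a single animal far from the rest, and 5 were found. How many would arise by chance was not estimated. The sets are not independent, since Dbf4 is also part of the helicase activation mean. The AHRVav1 animal 4 of 2 months stood apart in helicase activation, with a mean deviation from AHRFX of 0.252 against -0.84 to -0.594 in the other 4. The same animal had the highest Dbf4, the activator of CDC7, at 7.5 on the log2 scale against 4.1 to 4.74. The AHRFX animal 5 of 18 months had the highest Dbf4 of its group, at 8.56 against 7.92 to 8.15, and the highest Mcm6, at 10.3 against 9.85 to 10. Orc1 in the AHRFX animal 4 of 2 months was at 4.66 against 4.21 to 4.29, all below background.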

How the results depend on the processing

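No called difference changed sign under any alternative that was run. Of the single members named, 844 of the values under alternatives kept their side of the threshold and 6 lost it, all 6 for Chaf1a in AHRVav1 between the ages (the methods' t-test gave an adjusted p of 0.0659, leaving out animals 1 and 2 of 18 months 0.086, and leaving out AHRVav1 animal 2 or 5 of 2 months or 3 or 4 of 18 months, one at a time, also lost it, with differences of 1.7 to 3.03 over all animals left out). Members called between the genotypes stayed at 0 under every alternative.

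The counts between genotypes at an unadjusted p under 0.05 depended on the fit. At 2 months all 4 groups in 1 fit gave 113 probe sets called and 5 members lower, and the methods' t-test gave 1 higher and 0 lower. Leaving out 1 animal gave 1 to 3 higher and 0 to 3 lower. At 18 months members higher numbered 2 with all 4 groups in 1 fit, 2 without animals 1 and 2, 12 with a term for them, and 3 (without AHRVav1 animal 2) to 10 (without AHRVav1 animal 6) when 1 animal was left out, with 4 without AHRVav1 animal 1, AHRFX animal 2 or AHRFX animal 3. Probe sets called were 0 to 1, the 1 without AHRFX animal 1. For the interaction, probe sets called were 5 among the probe sets of highest signal, 5 without a trend, 1 with a replicate block, 0 without animals 1 and 2, 0 with a variance for each group and 0 to 13 without 1 animal. Members higher were 2 with the replicate block and 0 without animals 1 and 2, where 1 was lower, and 2 to 6 higher and 1 to 3 lower without 1 animal.

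Between the ages an offset of 1 raised the member median to 1.55 in AHRFX and 2.04 in AHRVav1. With the methods' t-test 24 members passed the adjusted threshold in AHRFX and 30 in AHRVav1. Members that rose numbered 24 to 32 in AHRFX and 30 to 35 in AHRVav1 when 1 animal was left out. The member count with a variance for each group is not given here. Probe sets called among those of highest signal were 6367 and 7001, where fewer were tested, and 7278 with the replicate block in AHRFX. In AHRVav1 22 members rose, with a median of 1.48, without animals 1 and 2. That fit had fewer animals, and its share of all probe sets is not given. The median in AHRVav1 was 1.48 to 1.8 without 1 animal. At 18 months the deviations of same-numbered animals correlated by 0.201, 0.252, 0.17, 0.191, -0.124 and 0.176 for numbers 1 to 6, and at 2 months by 0.00465 to 0.0621. The labels tie no number to a shared litter or day and not every animal correlated best with its own number, so the numbers were not taken as pairs. The block changed no call of a member between the genotypes. With the 90th percentile as background, 15 members were detected on every 2-month AHRVav1 array in place of 8. Causes were not tested. Weak detection at 2 months limits every comparison with that age.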
